A study of Mus musculus with 11 samples.

Results

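The response to CpG that was shared by the end of the injection course and by day 30 was measured in alveolar macrophages, phagocytes that live on the surface of the airspaces. It was read from all 7 arrays of CpG-injected mice against the 4 arrays of PBS-injected mice, which together are all 11 samples of the series. The mice were female C57BL/6J animals, 6 weeks old when bought, and received CpG 1826 or PBS in 5 injections within 10 days. Control mice (PBS, n = 4) and acute mice (CpG, n = 3) were lavaged on day 10, and resolution mice (CpG, n = 4) on day 30, after the same course. The acute and resolution groups had equal weight in the comparison, and a gene counted as shared where it differed from control with the same sign in each group. MAS, the syndrome this model stands for, is macrophage activation syndrome. No PBS group lavaged on day 30 was analysed here, so for the resolution group the effects of CpG and of the later day cannot be told apart. The labels call the samples biological replicates of lavage cells purified by adherence, a step that can leave other cells on the dish.

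CpG 1826 is a synthetic DNA whose unmethylated CpG motifs are recognised by Tlr9, an endosomal sensor of microbial DNA. Repeated dosing drives interferon-gamma, which acts on macrophages and raises guanylate-binding proteins, the immunoproteasome, MHC molecules and Fc receptors. Alveolar macrophages are specialised in clearing surfactant lipid and inhaled particles, and depend on scavenger receptors, lipid handling, lysosomes, iron export and a strong antioxidant defence.

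The arrays had a median intensity between 51.4 and 57.0. Background was taken from 23 antigenomic probe sets per array, which match no mouse sequence, and lay between 6.12 and 6.24 on the log2(value + 1) scale used for every level below. Between 8731 and 8952 genes lay above it. The defining genes Siglecf (14.51 to 15.33) and Marco (12.91 to 14.39) were high on all 11 arrays. Principal component 1, with 43.9% of the variance, set the 4 resolution arrays (28.4 to 35.4) apart from the other 7 (-27.3 to -12.4), so the shared response is not the main axis of these data. Control replicate 4 stood apart on the third component (-34.9, against 3.41 to 9.22 in the other controls). Arg1, an enzyme of alternative activation, lay at 11.52 on that array and at 4.95 to 6.67 on the other controls. Markers of lung epithelium averaged 7.54 to 8.10 in control, 8.69 to 9.16 in acute and 6.94 to 7.19 in resolution arrays, and the 2 red cell markers measured reached 12.35 in acute replicate 1. These are bulk samples, in which fewer cells of a type and less RNA per cell cannot be told apart. Tlr9 itself was too dim to be tested, at no more than 5.34 and above background on 0 of 11 arrays.

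The promoters of several genes called higher hold the letters bound by interferon-activated factors. They are shown because interferon-induced genes lead the rises described below. In RefSeq promoters of build GRCm38.p6 (250 bases before to 50 after the start, 300 in all), both strands were searched for the interferon-gamma activated site TTCNNNGAA and the interferon-stimulated response element, GAAA and GAAA with 2 bases of any kind between them. Matches are in capitals. The stretches lie at chr3:142530205-142530317 (plus strand) for Gbp7, chr11:58199486-58199555 (plus strand) for Igtp, chr3:142559974-142560039 (plus strand) for Gbp3, chr1:173880189-173880248 (minus strand) for Mndal, chr3:96294045-96294103 (minus strand) for Fcgr1 and chr17:34198073-34198131 (plus strand) for Psmb8.
Gbp7: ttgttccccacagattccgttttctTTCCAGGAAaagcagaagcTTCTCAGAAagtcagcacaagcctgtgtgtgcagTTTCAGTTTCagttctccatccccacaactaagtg
Igtp: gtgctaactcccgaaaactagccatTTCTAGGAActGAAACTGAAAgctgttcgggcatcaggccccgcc
Gbp3: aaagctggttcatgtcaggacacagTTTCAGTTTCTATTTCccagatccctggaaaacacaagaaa
Mndal: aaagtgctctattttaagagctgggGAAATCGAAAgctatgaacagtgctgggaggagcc
Fcgr1: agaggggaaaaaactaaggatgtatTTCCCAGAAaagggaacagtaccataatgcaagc
Psmb8: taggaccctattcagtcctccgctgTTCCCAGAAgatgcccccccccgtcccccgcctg

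Gbp7 has the interferon-gamma activated site in 2 places and the response element in 1, Igtp has each once side by side, and in Gbp3 the response element is read in 2 overlapping frames. Of the 15 genes higher with the largest shared difference, 11 had a promoter in the table. The interferon-gamma activated site was in 4 of their 15 promoters (26.7%), against 36 of 359 (10.0%) for all genes called higher and 2726 of 32851 (8.3%) for all promoters. For the response element the shares were 5 of 15 (33.3%), 17 of 359 (4.74%) and 1131 of 32851 (3.44%). The interferon-gamma activated site was also in promoters of Il1f9 (TTCCCAGAA, as in Fcgr1 and Psmb8) and Nfkb2 (TTCCCCGAA), which were called lower. These shares were not counted for genes called lower, so they cannot tell the directions apart. A match describes these letters in this window and nothing more.

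Among genes that were lower, the antioxidant response element TGACNNNGC, the letters read by Nrf2 with its Maf partners, is shown for 3 members of the leading group. The stretches lie at chr9:86695912-86695945 (minus strand) for Me1, chr4:107802825-107802883 (plus strand) for Lrp8 and chr15:100729416-100729474 (minus strand) for Galnt6, with matches on either strand in capitals.
Me1: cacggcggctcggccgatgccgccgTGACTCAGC
Lrp8: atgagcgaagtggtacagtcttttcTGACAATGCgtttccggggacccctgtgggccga
Galnt6: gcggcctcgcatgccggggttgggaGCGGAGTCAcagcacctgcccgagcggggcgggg

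This element was in 72 of 418 promoters of genes called lower (17.2%), against 4071 of 32851 (12.4%) of all promoters. For the 15 leading genes it was in 3 of 16 promoters (18.8%), those of the genes shown. The palindromic E-box CACGTG was in 49 of 418 (11.7%), against 2349 of 32851 (7.15%), and in 0 of 16 promoters of the 15 leading genes, 12 of which were in the table. Among genes called higher, Igtp, Nr4a2, H2-DMb2 and C1qb also had the antioxidant response element, and Psmb10 the E-box. Shares of these motifs were not counted for genes called higher, and here too a match describes letters in this window and nothing more.

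Of 12143 genes tested, 326 (2.68%) were called higher and 396 (3.26%) lower after CpG. A gene was called where the equal-weight difference had an adjusted p under 0.05 (limma, Benjamini-Hochberg over all genes) and both group differences had the same sign. Where a gene is said to rise or fall with no group named, it passed this call, which does not ask each group to pass alone. Without the condition on sign, 791 genes (6.51%) passed, and 69 of them (8.72%) had opposite signs. All 7 CpG arrays lay above all 4 control arrays for 164 genes (1.35%) and below them for 263 (2.17%), and 94 (0.774%) and 168 (1.38%) of these were also called. Over all genes tested, 3747 differences were positive in both groups, 3702 negative in both and 4694 opposite, and both groups are set against the same 4 controls. At an unadjusted p under 0.05 (limma, equal-weight difference) and the same sign in both groups, 1097 of the 12143 genes were higher and 1182 lower. Unadjusted counts of the lists below use this rule.

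The call rests more on day 30 than on day 10. The acute difference was the smaller one in size in 658 of the 722 genes called, with a median size of 0.34 against 0.99 in the resolution group. Tested alone, acute against control called 23 genes higher (0.189%) and 6 lower (0.0494%), and resolution against control called 1166 higher (9.6%) and 1093 lower (9%). The resolution and acute arrays themselves differed in 473 of the 722 genes, against 1755 of all genes tested (14.5%), and 249 did not pass that test. The smaller of the 2 differences reached 0.5 on the log2 scale in 57 genes higher and 102 lower, and reached 1 in 3 higher (C1qa, Gvin1 and Gbp7) and 13 lower. With control replicates 3 and 4 left out the counts were 131 and 220, with acute replicate 2 left out they were 210 and 268, and with control replicate 2 left out 215 and 243. With the 7 CpG arrays fitted as 1 group, in which the difference between acute and resolution arrays counts as spread, 4 genes were called higher and 9 lower.

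**Figure D1:**
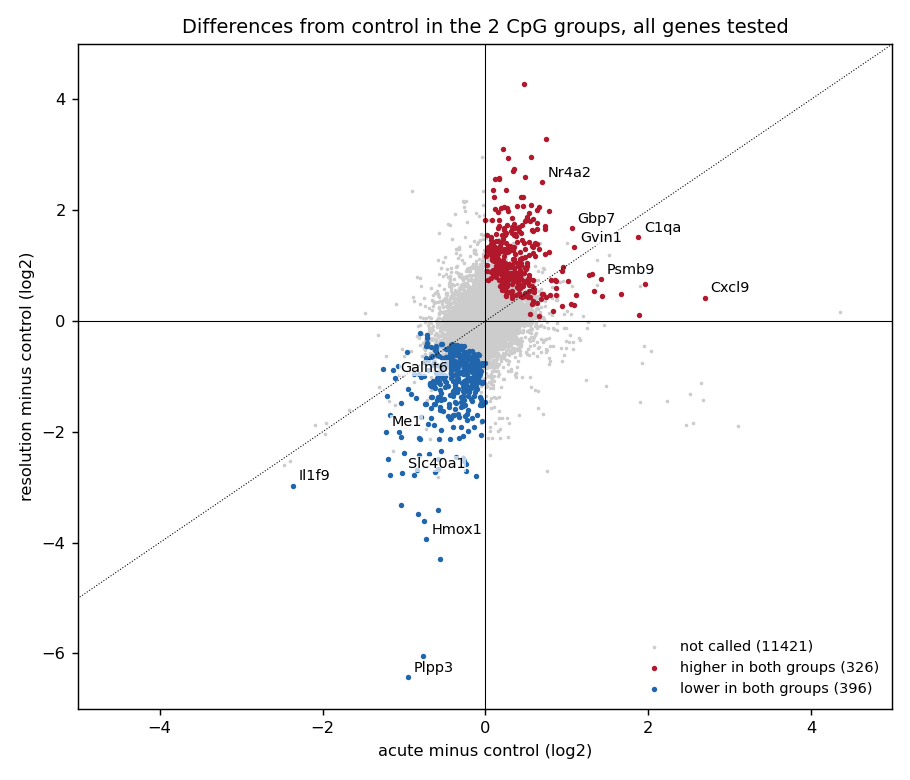
Difference from control of every gene tested, acute on the horizontal and resolution on the vertical axis, both log2 and sharing the 4 control arrays, with the 326 genes called higher in red and the 396 called lower in blue. Most coloured points lie nearer the vertical than the horizontal axis, while C1qa, Gvin1 and Il1f9 lie near the dotted line of equal difference.

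Interferon-gamma induced genes had the largest share of members called higher among the 25 gene lists. Of 30 genes listed 23 were on the array and 17 were tested. Of these 9 rose (52.9%, against 2.68% of all genes tested) and 0 fell (0 also at an unadjusted p under 0.05). The median difference of the 17 was 0.79, against 0.0097 over all genes. The median was 0.73 in the acute and 0.46 in the resolution group. The risers were the GTPases Gbp2, Gbp3, Gbp7, Gbp8 and Igtp, the transcription factors Irf1 and Ciita, the chemokine Cxcl9 and the high-affinity IgG receptor Fcgr1. The genes Cxcl10, Cxcl11, Iigp1, Tgtp2, Socs1, Nos2 and Ido1, also on the list, were below background on all arrays.

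Gbp7, a guanylate-binding protein that helps attack microbes inside cells, lay at 8.43, 8.20, 8.93 and 8.72 on the control arrays, at 9.70, 9.88 and 9.31 on the acute arrays and at 10.47, 10.14, 10.32 and 10.05 on the resolution arrays. All CpG arrays were above all control arrays. It rose 2.09-fold in acute (adjusted p = 0.0458) and 3.19-fold in resolution (4.24e-05), and the equal-weight difference was 1.37 ± 0.16 (SE, adjusted p = 0.000378). The resolution rise exceeded the acute one (adjusted p = 0.049).

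Igtp, a GTPase that acts on vacuoles holding parasites, was dim, with 6.28, 5.71, 5.90 and 6.43 in control, 6.62, 7.32 and 7.13 in acute and 6.51, 7.33, 6.72 and 7.37 in resolution. Its groups did not overlap, although the lowest CpG array was only just above the highest control. The difference was 0.92 ± 0.21 (adjusted p = 0.0193), with almost the same size in acute (0.94) and resolution (0.90). Gbp8 was at 6.8, 8.04, 7.53 and 7.27 in control, 8.14, 8.21 and 8.09 in acute and 8.61, 8.42, 8.55 and 8.93 in resolution, a difference of 0.98 ± 0.19 (0.0089). Gbp3 rose by 1.05 ± 0.26 (0.0326), with an overlap, since resolution replicate 4 (6.13) was as low as the controls (5.80 to 6.34). Gbp2 rose more in acute (1.96) than in resolution (0.67), for an equal-weight difference of 1.32 ± 0.19 (0.00181). The Gbp2 controls (5.25 to 6.12) were all below background, as was resolution replicate 4 (6.08), which overlapped them.

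The larger interferon-inducible GTPase Gvin1 lay at 10.58, 10.37, 10.55 and 10.65 in control, 11.91, 11.83 and 11.15 in acute and 11.68, 11.70, 11.73 and 12.33 in resolution. Every CpG array was above every control, and the rise was 1.21 ± 0.17 (adjusted p = 0.0013), or 2.13-fold in acute and 2.51-fold in resolution. Mndal, an interferon-inducible nuclear protein of the p200 family, was at 10.71, 10.46, 10.95 and 10.88 in control, 12.05, 12.21 and 11.91 in acute and 11.82, 11.45, 11.55 and 11.58 in resolution. It rose 2.47-fold in acute (0.00372) and 1.80-fold in resolution (0.000884). Guanylate-binding proteins, Gvin1 and the p200 proteins have near-identical relatives, so which copy a probe set reads is uncertain.

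Cxcl9, a chemokine that attracts T cells and a readout of interferon-gamma, passed the call but was a day 10 signal. Its levels were 5.79, 5.61, 5.59 and 4.80 in control, all below background, 7.62, 8.63 and 8.17 in acute and 5.80, 6.42, 5.55 and 5.70 in resolution. It was at least 3.94-fold higher in acute (adjusted p = 0.00291), while the resolution difference of 0.42 did not pass (0.307) and the resolution arrays overlapped the controls. The CpG groups differed (0.000234). Ifng itself was below background on all arrays, at 4.92 to 5.98. With the mean of the epithelial markers as a covariate, 4 of the 17 list members were called higher in place of 9, and with control replicate 3 left out 5. Calls of single genes ended as follows: Igtp without control replicate 2 (adjusted p = 0.0735), control replicate 3 (0.0616) or acute replicate 2 (0.0508), and Gbp3 without any 1 of the 4 controls (0.0556 to 0.106), acute replicate 2 (0.0633) or resolution replicate 3 (0.0584).

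**Figure D2:**
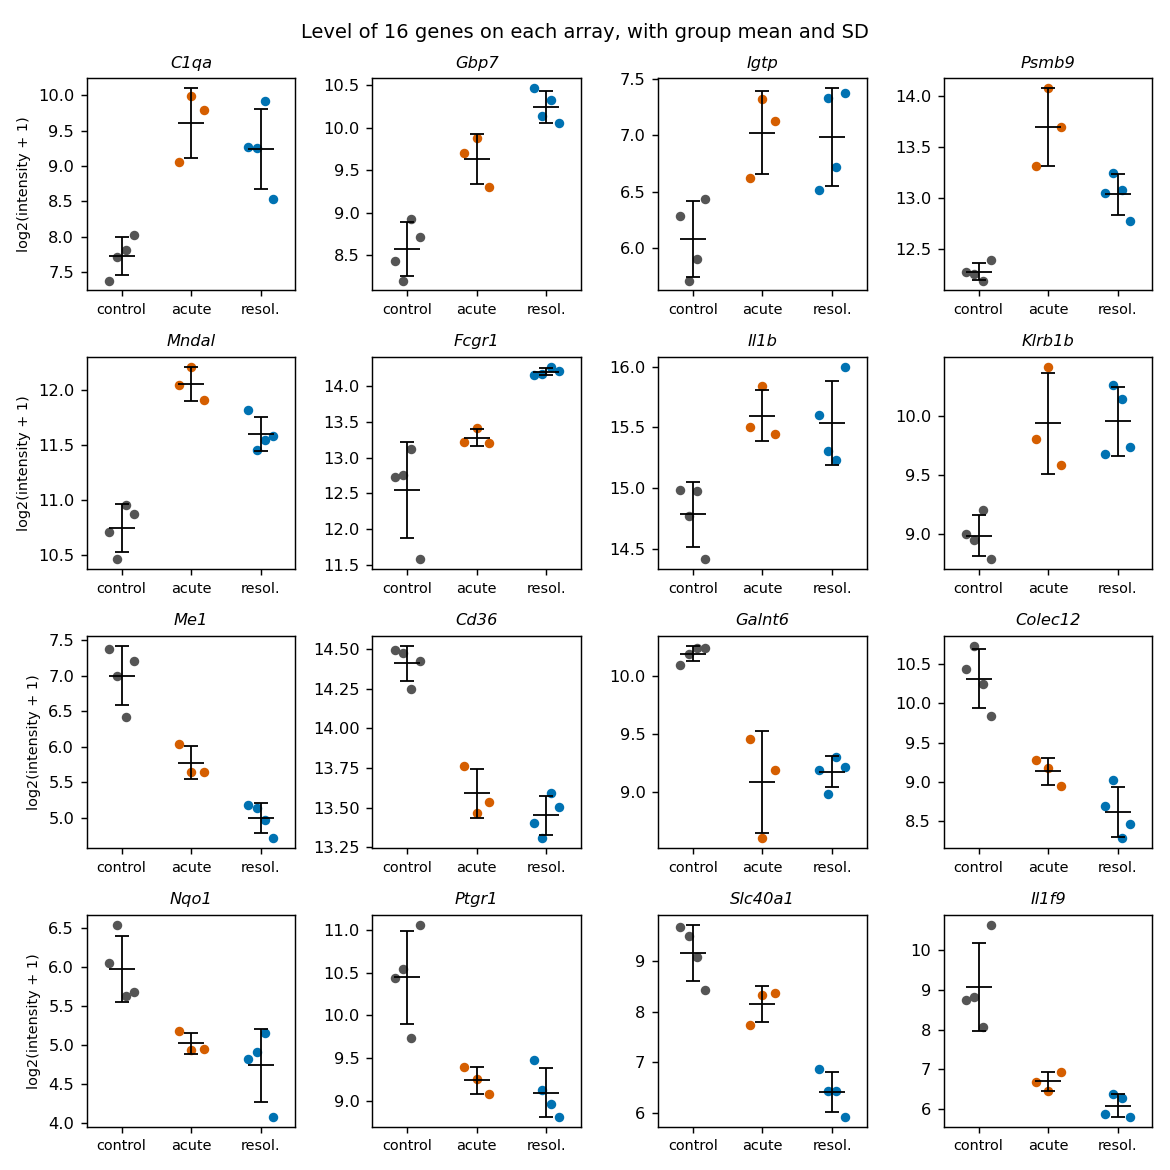
Level on each array, as log2(intensity + 1), of 8 genes higher (upper 2 panel rows) and 8 genes lower in both CpG groups, with points for arrays, a bar for the group mean and whiskers for the SD (control n = 4, acute n = 3, resolution n = 4). In each panel the 7 CpG arrays lie on 1 side of the 4 control arrays, and for Il1f9 control replicate 4 lies far above the other controls.

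The immunoproteasome cuts proteins into peptides for MHC class I. Of 22 genes tested on the list of MHC class I and immunoproteasome genes 6 rose, Psmb8, Psmb9, Psmb10, Psme1, Tap1 and H2-M3, and 0 fell (1 at an unadjusted p under 0.05). The share of risers was 27.3%, against 2.68% of all genes tested. The median difference was 0.20, with 0.53 in acute and -0.05 in resolution. Members with the same sign in both groups numbered 9 above and 3 below control, and 10 had opposite signs. Psme1, an activator subunit, had 0.66 in acute and 0.09 in resolution, which alone did not pass (adjusted p = 0.636).

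Psmb9, an inducible catalytic subunit, was at 12.27, 12.25, 12.19 and 12.39 in control, 13.31, 14.07 and 13.69 in acute and 13.04, 13.25, 13.07 and 12.77 in resolution. No array overlapped. It rose 2.67-fold in acute (adjusted p = 0.00403) and 1.69-fold in resolution (0.00526), and the acute rise was the larger (0.0222). Psmb10 rose by 0.59 ± 0.12 (0.0095), with 0.74 in acute and 0.44 in resolution. For Psmb8 the difference was 0.68 ± 0.12 (0.00536), made of 1.05 in acute (0.0107) and 0.31 in resolution, which alone did not pass (0.143). Tap1, a subunit of the peptide transporter, followed the same order with 1.09 in acute and 0.29 in resolution (0.69 ± 0.12, adjusted p = 0.00442), and its resolution arrays (11.53 to 12.00) overlapped the controls (11.37 to 11.72). In all 3 of Psmb8, Psmb9 and Tap1 the 2 CpG groups differed. With control replicates 3 and 4 left out 2 of the 22 members were called, and Psmb8 (0.0631) and Psmb10 (0.116) were not among them.

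MHC class II presentation showed 3 risers among 15 genes tested, H2-DMb2, Ciita and Cd80, and 0 fallers (1 at an unadjusted p under 0.05). The median was 0.24, with 0.35 in acute and 0.0029 in resolution. Members with the same sign in both groups numbered 8 above and 1 below control, and 6 had opposite signs. The share of risers was 20%, against 2.68% of all genes tested. H2-DMb2, a chain of the chaperone that loads class II peptides, was at 12.71, 12.93, 12.75 and 13.20 in control, 13.22, 13.76 and 13.50 in acute and 13.28, 13.74, 13.29 and 13.60 in resolution. Its rise of 0.59 ± 0.14 (adjusted p = 0.0293) had the same size in acute (0.59) and resolution (0.58), and the groups touched without overlap. Ciita, the master activator of class II genes, rose by 0.47 ± 0.12 (0.0301) near background, from 6.37 to 6.65 in control to 6.67 to 7.31 on the CpG arrays. Cd80, a ligand that costimulates T cells, rose by 0.95 ± 0.16 (0.00404), with 1.55 in resolution and 0.35 in acute (0.638). With each array scaled to its median the list held 1 riser, since H2-DMb2 and Ciita lost their calls (adjusted p 0.0503 to 0.0541), whereas it held 5 with the filter at the 60th percentile and 6 with an intensity trend. It also held 1 riser without control replicate 1, 2 or 3 or without acute replicate 3, and 1 faller without control replicate 4. H2-DMb2 lost its call without control replicate 1, 2 or 3, acute replicate 2 or 3 or resolution replicate 4 (adjusted p 0.0507 to 0.094), and Ciita without control replicate 1, 2 or 3, acute replicate 3 or resolution replicate 3 (0.055 to 0.093).

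Genes induced by type I interferon gave 0 calls in either direction among 24 tested. At an unadjusted p under 0.05 (limma), 9 of the 24 were positive and 0 negative in both groups. Over all 12143 genes tested these counts were 1097 and 1182. The median of the 24 was 0.27, with 0.39 in acute and 0.03 in resolution. Ifit1, Ifit2, Mx1, Mx2, Oasl2, Rsad2 and Irf7, classic members, were below background on all arrays. The count of risers became 1 without control replicate 3 or acute replicate 1 and 2 without control replicate 4. It was 1 with median scaling, quantile normalization, the 60th percentile filter or a pseudocount of 16, 2 with an intensity trend and 3 with array weights.

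Complement C1q and the IgG receptor Fcgr1 made up the 4 risers among 21 genes tested on the list of complement and Fc receptors, of which 0 fell (1 at an unadjusted p under 0.05). The share of risers was 19%, against 2.68% of all genes tested. C1qa, a chain of the molecule that starts the classical complement cascade, had the largest smaller-of-2 difference of all genes higher without overlap (1.51). It was at 7.38, 7.71, 7.81 and 8.03 in control, 9.05, 9.99 and 9.79 in acute and 9.27, 9.25, 9.91 and 8.53 in resolution, with no overlap. It rose 3.68-fold in acute (adjusted p = 0.0201) and 2.85-fold in resolution (0.00203), for an equal-weight difference of 1.70 ± 0.24 (0.00167). The 2 CpG groups did not differ past the threshold (difference -0.37 ± 0.29, adjusted p = 0.458).

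The other chains of the same molecule were near background. C1qb was at 5.41, 5.33, 5.86 and 5.71 in control, below background throughout, at 5.86, 6.55 and 6.91 in acute and at 6.22, 6.25, 6.30 and 5.94 in resolution (0.73 ± 0.18, adjusted p = 0.0312). C1qc passed with 0.61 ± 0.15 (0.0336), but only 1 of the 11 arrays, an acute one, was above background. C1q chains are also markers of interstitial macrophages. Of that marker list 11 genes were tested, 3 rose (the C1q genes) and 0 fell. At an unadjusted p under 0.05 (limma) 5 of the 11 were higher and 0 lower, against 1097 and 1182 of 12143 genes tested. Of the 11, 7 were positive and 2 negative in both groups. The median was 0.27, with 0.36 in acute and 0.18 in resolution. The mean level of those 11 was 8.46 to 8.65 in control, 8.90 to 9.24 in acute and 8.63 to 8.88 in resolution. Cx3cr1, Cd163, Folr2, Lyve1, Ccl12 and Maf, which define such cells, were below background on all arrays. C1qb lost its call without control replicate 1 or 2, acute replicate 2 or 3 or resolution replicate 2 or 3 (adjusted p 0.0517 to 0.104), and C1qc without any control, acute replicate 3 or resolution replicate 1, 3 or 4 (0.0504 to 0.0889). With control replicate 2, acute replicate 3 or resolution replicate 3 left out, the complement and Fc receptor list held 2 risers, and also with the 60th percentile filter, which C1qb and C1qc did not pass.

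Fcgr1 lay at 12.73, 12.76, 13.11 and 11.58 in control, 13.21, 13.41 and 13.20 in acute and 14.15, 14.16, 14.26 and 14.21 in resolution. The groups did not overlap, but acute arrays were just above the control arrays other than control replicate 4, which was low. The difference was 1.19 ± 0.22 (adjusted p = 0.00723), with 3.14-fold in resolution (0.000626) and 1.66-fold in acute (0.44), and the 2 CpG groups differed (0.0394). Without control replicate 4 the call remained, with a difference of 0.87 (0.00155).

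Klrb1b, an inhibitory lectin-like receptor best known from natural killer cells, was clearly above background in every group, at 9.0, 8.95, 9.20 and 8.78 in control, 9.80, 10.41 and 9.58 in acute and 9.67, 10.26, 10.14 and 9.73 in resolution. Its arrays did not overlap, and the rise was 0.96 ± 0.17 (adjusted p = 0.00529), with 0.95 in acute (0.106) and 0.97 in resolution (0.00365). Markers of natural killer and cytotoxic cells averaged 5.12 to 5.71 in control, 5.92 to 6.21 in acute and 5.20 to 5.35 in resolution. Ncr1, Nkg7, Gzma, Gzmb, Prf1, Eomes and Tbx21 were below background on all arrays.

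Il1b was the only riser called among 28 inflammatory cytokines and NF-kB targets (3.57%, close to the 2.68% of all genes tested). This inflammasome-processed cytokine was at 14.98, 14.77, 14.98 and 14.41 in control, 15.51, 15.84 and 15.45 in acute and 15.60, 15.31, 15.23 and 15.997 in resolution. All CpG arrays were above all control arrays, by 0.81 in acute (adjusted p = 0.186) and 0.75 in resolution (0.0137), and by 0.78 ± 0.17 with equal weight (0.0136). Without control replicates 3 and 4 the adjusted p was 0.0944. Nfkb2 and Nfkbie, a subunit and an inhibitor of NF-kB, were called lower from the resolution group alone (7.14% of the list, against 3.26% of all genes tested). Nfkb2 fell by 1.81 in resolution (6.05e-06) and differed by -0.04 in acute (0.964), and Nfkbie by -2.05 (2.07e-05) and -0.05 (0.969). The acute sign of Nfkbie turned without acute replicate 1, and that of Nfkb2 without control replicate 2 or acute replicate 2, which ended each call. Nfkbie also lost it with quantile normalization or array weights, and without control replicate 2 or acute replicate 2 the list held 1 faller.

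Tnf, Il18, Il6 and Il10, cytokines linked to macrophage activation syndrome, did not pass the shared test. Tnf was high, at 13.12 to 13.22 in control, 12.77 to 13.17 in acute and 12.61 to 13.45 in resolution (-0.15 ± 0.14, adjusted p = 0.616). Il18 was among the brightest genes, at 16.23 to 16.38, 16.35 to 16.48 and 16.56 to 16.65 (0.18 ± 0.09, adjusted p = 0.25). Its resolution arrays lay above all controls, and with an intensity trend Il18 was called higher. Its binding protein Il18bp, which blocks it, differed by -0.12 ± 0.16 (0.749). Il6 was at 6.32 to 6.93 in control, 6.68 to 7.11 in acute and 5.69 to 6.73 in resolution (0.67). Il10 was below background on all arrays. Cd274, the checkpoint ligand PD-L1, had opposite signs, with 0.15 in acute (0.785) and -1.0 in resolution (0.000167).

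The remaining leading risers had varied roles. Cxcl14, a chemokine of epithelia and macrophages, rose by 0.87 ± 0.20 (adjusted p = 0.0231). Tpst1, a Golgi enzyme that adds sulfate to tyrosines, rose by 1.01 ± 0.15 (0.00194). Nr4a2, an orphan nuclear receptor and immediate early gene, rose by 2.51 in resolution (5.6e-05) with 0.70 in acute (0.503). Tmem229b rose by 1.02 ± 0.12 (0.00042). Nfe2, a transcription factor of the blood lineages, passed with 0.80 ± 0.16 (0.0116) but was below background on all 11 arrays. Cxcl14 lost its call without control replicate 3 (0.0713), control replicate 4 (0.0685), acute replicate 2 (0.0592) or acute replicate 3 (0.0529).

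**Figure D3:**
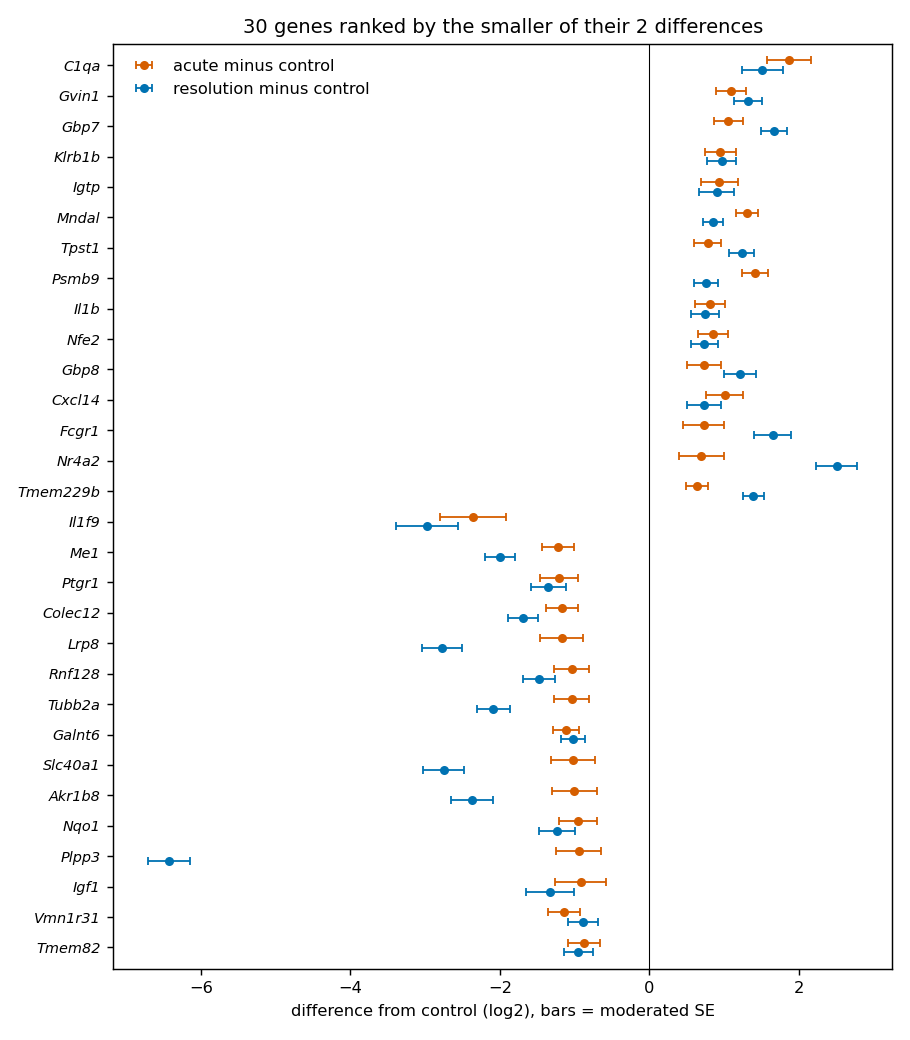
Difference from control, in log2, of the 15 genes higher and the 15 lower with the largest smaller-of-2 difference and no overlap between CpG and control arrays, with acute in orange, resolution in blue and bars for the moderated SE. Symbols of unnamed gene models were left out. Klrb1b, Igtp, Il1b, Ptgr1 and Galnt6 have nearly equal differences in both groups, while Nr4a2, Slc40a1, Lrp8 and above all Plpp3 differ far more in resolution.

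The antioxidant defence had the largest share of members called lower among the 25 lists. Of 22 genes tested 10 fell (45.5%, against 3.26% of all genes tested) and 0 rose (1 at an unadjusted p under 0.05). Of the 22, 17 were negative in both groups, and the median difference was -0.34, with -0.22 in acute and -0.63 in resolution. The fallers were the heme-degrading enzyme Hmox1, the quinone reductase Nqo1, Gclc and Gclm of glutathione synthesis, the cystine transporter Slc7a11, Srxn1, Txnrd1 and Prdx1 of the peroxiredoxin and thioredoxin system, the glutathione transferase Gstm1 and the biliverdin reductase Blvrb. In acute alone none of the 10 passed (adjusted p from 0.247 for Nqo1 to 0.801 for Slc7a11). Slc7a11 differed by -0.55 in acute and -4.30 in resolution, Gclm by -0.44 and -2.12, and Txnrd1 by -0.30 and -1.92. The 2 CpG groups differed for all fallers but Nqo1 (limma, adjusted p 1.84e-05 to 0.00803). Leaving out single arrays gave 10 or 11 fallers, and leaving out control replicates 3 and 4 together gave 8.

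Hmox1 was at 15.78, 15.83, 15.50 and 15.18 in control, 15.24, 14.68 and 14.61 in acute and 12.19, 11.26, 12.00 and 11.08 in resolution. Only acute replicate 1 overlapped the controls. It fell 15.3-fold in resolution (adjusted p = 1.73e-06), whereas the acute level was 1.65-fold lower without passing (0.443). Srxn1 had the same shape, at 15.14, 15.22, 14.55 and 14.65 in control, 14.47, 14.14 and 14.31 in acute and 11.95, 11.09, 11.12 and 11.79 in resolution, with no overlap and a 10.6-fold fall in resolution (1.73e-06) against a 1.5-fold lower acute level (0.479). Gclc fell 5.64-fold in resolution and was 1.5-fold lower in acute (0.418). Nqo1 was nearly as low in acute as in resolution, at 6.05, 6.54, 5.62 and 5.67 in control, 5.17, 4.94 and 4.95 in acute and 4.82, 4.9, 5.15 and 4.07 in resolution (-1.09 ± 0.21, adjusted p = 0.00865), but only 1 array, control replicate 2, was above background, so no fold is given. With the epithelial markers as a covariate the acute sign of Gclc turned, which ended its call.

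Of fatty acid synthesis and NADPH supply, 3 of 20 genes fell (15%, against 3.26% of all genes tested) and 0 rose (1 at an unadjusted p under 0.05), with a median of -0.01. Me1, the malic enzyme that makes NADPH in the cytosol, was at 7.38, 6.99, 6.41 and 7.21 in control, 6.04, 5.64 and 5.65 in acute and 5.18, 5.14, 4.97 and 4.71 in resolution. All CpG arrays were below background. It was at least 1.76-fold lower in acute (adjusted p = 0.0368) and at least 1.75-fold lower in resolution (2.57e-05), with an equal-weight difference of -1.61 ± 0.18 (0.000378). Pgd, an enzyme of the pentose phosphate pathway, fell by 0.89 ± 0.14 (0.00251), and Elovl1, which elongates fatty acids, by 0.39 ± 0.10 (0.0426).

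Ptgr1, an NADPH-dependent reductase of prostaglandins and reactive lipid aldehydes, was at 10.44, 10.54, 9.74 and 11.07 in control, 9.39, 9.25 and 9.08 in acute and 9.48, 9.13, 8.96 and 8.81 in resolution. No array overlapped, and the fall was 1.28 ± 0.21 (adjusted p = 0.00368), with -1.21 in acute and -1.35 in resolution. The aldo-keto reductase Akr1b8 fell by 1.69 ± 0.25 (0.00189), 5.20-fold in resolution and 2.01-fold lower in acute (0.308). Elovl1 lost its call without control replicate 2, 3 or 4, acute replicate 2 or 3 or any 1 of the resolution arrays (adjusted p 0.0546 to 0.136), and with no filter (0.0602).

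Iron and heme genes fell too, on a list that shares Hmox1 and Blvrb with the antioxidant genes. Of 27 genes tested 9 fell (33.3%, against 3.26% of all genes tested) and 0 rose (0 at an unadjusted p under 0.05), and 16 were negative in both groups. The fallers were the iron transporters Slc40a1, Slc11a1, Slc11a2 and Slc39a14, the heme transporter Slc48a1, the heme oxygenases Hmox1 and Hmox2, Blvrb and the heme synthesis enzyme Alas1. Alas1 differed by -0.05 in acute (adjusted p = 0.911) and -0.91 in resolution, and Slc11a2 by -0.06 (0.957) and -1.41. The median was -0.17, with -0.11 in acute and -0.23 in resolution. Red cell markers averaged 6.54 to 7.16 in control, 7.0 to 12.35 in acute and 6.08 to 7.27 in resolution arrays, and their part in the result was not tested.

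Slc40a1, ferroportin, the iron exporter of macrophages, was at 9.67, 9.50, 9.08 and 8.42 in control, 7.74, 8.33 and 8.37 in acute and 6.86, 6.44, 6.43 and 5.92 in resolution. The groups did not overlap, although control replicate 4 was close to the acute arrays. It fell 6.74-fold in resolution (adjusted p = 2.52e-05) and was 2.03-fold lower in acute (0.28), and the CpG groups differed (0.00177). Slc11a1, the phagosomal metal pump Nramp1, was at 11.12, 10.28, 11.03 and 11.94 in control, 10.32, 9.96 and 9.43 in acute and 9.16, 7.94, 9.13 and 8.18 in resolution (-1.84 ± 0.32, adjusted p = 0.00475). Acute replicate 1 lay level with control replicate 2, and the other CpG arrays were below all controls. Slc39a14 fell by 0.56 ± 0.14 (0.0368), with -0.49 in acute and -0.64 in resolution. Slc39a14 lost its call without control replicate 1, 2 or 3, acute replicate 2 or 3 or resolution replicate 3 (0.054 to 0.123), Slc11a1 without control replicates 3 and 4 together (0.0575), and Slc40a1 changed its acute sign with the epithelial covariate.

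Receptors for lipid and lipoproteins moved in both directions. Cd36 and Lrp8 fell, Scarb1 rose, and Marco (-0.32 ± 0.21) did not pass. Cd36, a receptor for oxidised lipid and fatty acids, was at 14.49, 14.48, 14.25 and 14.42 in control, 13.76, 13.47 and 13.54 in acute and 13.40, 13.31, 13.59 and 13.50 in resolution. All CpG arrays were below all controls, the spread within groups was small, and it fell 1.77-fold in acute (adjusted p = 0.0165) and 1.94-fold in resolution (0.000102). The groups did not differ past the threshold (-0.14 ± 0.12, adjusted p = 0.511). Colec12, a scavenger receptor with a collectin domain, was at 10.44, 10.73, 10.24 and 9.83 in control, 9.28, 9.18 and 8.94 in acute and 8.70, 9.03, 8.29 and 8.47 in resolution, and fell by 1.43 ± 0.18 (0.000627). Lrp8, a lipoprotein receptor, fell 6.83-fold in resolution (2.27e-05) and was 2.25-fold lower in acute (0.186), a sign that turned with the epithelial covariate.

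Over the whole list of lipid uptake, efflux and storage, 5 of 35 genes rose (14.3%) and 6 fell (17.1%), and the median was -0.05. The shares over all genes tested were 2.68% and 3.26%. The risers were Scarb1, Cpt1a, Angptl4, Lpcat1 and Cidec. The fallers were Cd36, the sterol sensor Nr1h3, the lipid droplet protein Plin3, the lysosomal lipase Lipa and the fatty acid binding proteins Fabp4 and Fabp5. Nr1h3 differed by -0.04 in acute (adjusted p = 0.952) and -1.11 in resolution, and Cpt1a by 0.10 (0.877) and 1.09. Lipa was at 15.87, 15.91, 15.71 and 15.54 in control, 15.39, 15.25 and 15.35 in acute and 15.04, 14.85, 15.01 and 14.73 in resolution, with no overlap (-0.64 ± 0.11, adjusted p = 0.00392). Angptl4, an inhibitor of lipoprotein lipase, rose 4.17-fold in resolution (3.37e-05) with an acute difference of 0.65 (0.397). Lpcat1, which makes surfactant phospholipid, rose by 0.45 ± 0.11 (0.0337), with 0.45 in acute and 0.44 in resolution. The count of risers was 1 without control replicate 4 and 3 without acute replicate 2 or 3 or control replicate 1, and that of fallers was 3 without control replicate 4. Lpcat1 lost its call without control replicate 1, 2 or 4, any 1 acute array or resolution replicate 3 or 4 (0.0504 to 0.109), and with an intensity trend (0.0528).

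Of 31 lysosome and phagosome genes tested 5 fell (16.1%, against 3.26% of all genes tested) and 1 rose (3.23%, close to the 2.68% of all genes). Of the 31, 22 were negative and 4 positive in both groups, and the median was -0.23, with -0.19 in acute and -0.24 in resolution. The fallers were the cathepsin Ctsk, the galactosidase Gla, Lipa and the proton pump subunits Atp6v1a and Atp6v1h, and the riser was the NADPH oxidase subunit Ncf1. Atp6v1a fell 3.09-fold in resolution (3.37e-05) and was 1.44-fold lower in acute (0.387). Atp6v1h fell by 0.49 ± 0.12 (0.0308), with all CpG arrays (9.40 to 10.26) below all controls (10.37 to 10.57). Gla fell by 1.09 ± 0.25 (0.0228). The count of fallers was 9 with an intensity trend, 8 with array weights and 3 without control replicate 1, 2 or 3 or acute replicate 2. The riser was lost with median scaling or no filter and without control replicate 1, 2 or 3, acute replicate 2 or 3 or resolution replicate 1, 3 or 4. Gla lost its call without control replicate 1, 2 or 3 or acute replicate 2 (0.0505 to 0.0776), and Atp6v1h without any 1 control or acute array (0.0517 to 0.0972).

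Il1f9, the gene of interleukin-36 gamma, had the largest smaller-of-2 difference of the genes called lower without overlap (-2.36), with unnamed gene models left out. By the equal-weight difference it fell less (-2.67) than Plpp3 (-3.69), described next. It was at 8.74, 8.82, 8.05 and 10.64 in control, 6.69, 6.47 and 6.94 in acute and 5.87, 6.39, 6.27 and 5.81 in resolution, and only 2 of the 4 resolution arrays were above background. The groups were far apart, with a 5.14-fold lower level in acute (adjusted p = 0.0525) and a 7.87-fold fall in resolution (0.000303). Control replicate 4 was the highest control, and without it the equal-weight difference was -2.14 (0.000448). Galnt6, which starts mucin-type O-glycans, was at 10.10, 10.20, 10.24 and 10.25 in control, 9.46, 8.6 and 9.20 in acute and 9.19, 8.99, 9.31 and 9.22 in resolution. It fell 2.16-fold in acute (0.0201) and 2.03-fold in resolution (0.000839), among the most even of the falls.

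Plpp3, a phosphatase of bioactive lipids, was the most uneven. It was at 13.98, 13.86, 13.43 and 15.09 in control, 13.38, 13.24 and 12.81 in acute and 7.81, 7.68, 7.43 and 7.73 in resolution. It fell 85.9-fold in resolution (adjusted p = 6.81e-08), while the acute level was 1.93-fold lower (0.336), just below the controls. Rnf128, a ubiquitin ligase, fell by 1.26 ± 0.19 (0.00232), and the tubulin Tubb2a by 1.56 ± 0.19 (0.00059). Igf1, a growth factor, was at 12.95, 13.19, 12.94 and 14.59 in control, 12.45, 12.48 and 12.57 in acute and 12.19, 12.08, 12.54 and 11.56 in resolution, a fall of 1.12 ± 0.29 (0.0357) that was lost without control replicate 2, any 1 acute array or resolution replicate 1, 2 or 4 (0.0509 to 0.0747). Vmn1r31, a vomeronasal receptor gene, and Tmem82 also passed, by -1.01 ± 0.18 and -0.91 ± 0.17, both close to background.

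Of 32 genes of alveolar macrophage identity tested 2 rose (6.25%, against 2.68% of all genes) and 4 fell (12.5%, against 3.26%), and the median was -0.03. Siglecf differed by 0.11 ± 0.12 (adjusted p = 0.667) and Marco by -0.32 ± 0.21 (0.439). Pparg, the nuclear receptor that sets this identity, had 0.75 in resolution (0.000809) and -0.09 in acute (0.881). The fallers were Fabp4, Fabp5, Ctsk and the transcription factor Bhlhe41, and the risers Cidec and Serpinb1a. Serpinb1a differed by 0.06 in acute (adjusted p = 0.908) and 0.78 in resolution, and Fabp4 by -0.11 (0.866) and -1.20. Bhlhe41 fell by 1.43 in resolution (5.82e-05) with -0.27 in acute (0.677), and Ctsk by 1.14 (5.25e-05) with -0.25 (0.61). Fabp5 was called with -0.49 ± 0.12 (0.0323) and Cidec with 0.73 ± 0.15 (0.0105), of which only 0.12 was in acute (0.883). Without control replicate 3 or control replicate 4 the list held 1 riser. Fabp5 lost its call without control replicate 2, 3 or 4, acute replicate 2 or 3 or resolution replicate 4 (0.05 to 0.0751), and Cidec turned its acute sign without control replicate 4.

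**Figure D4:**
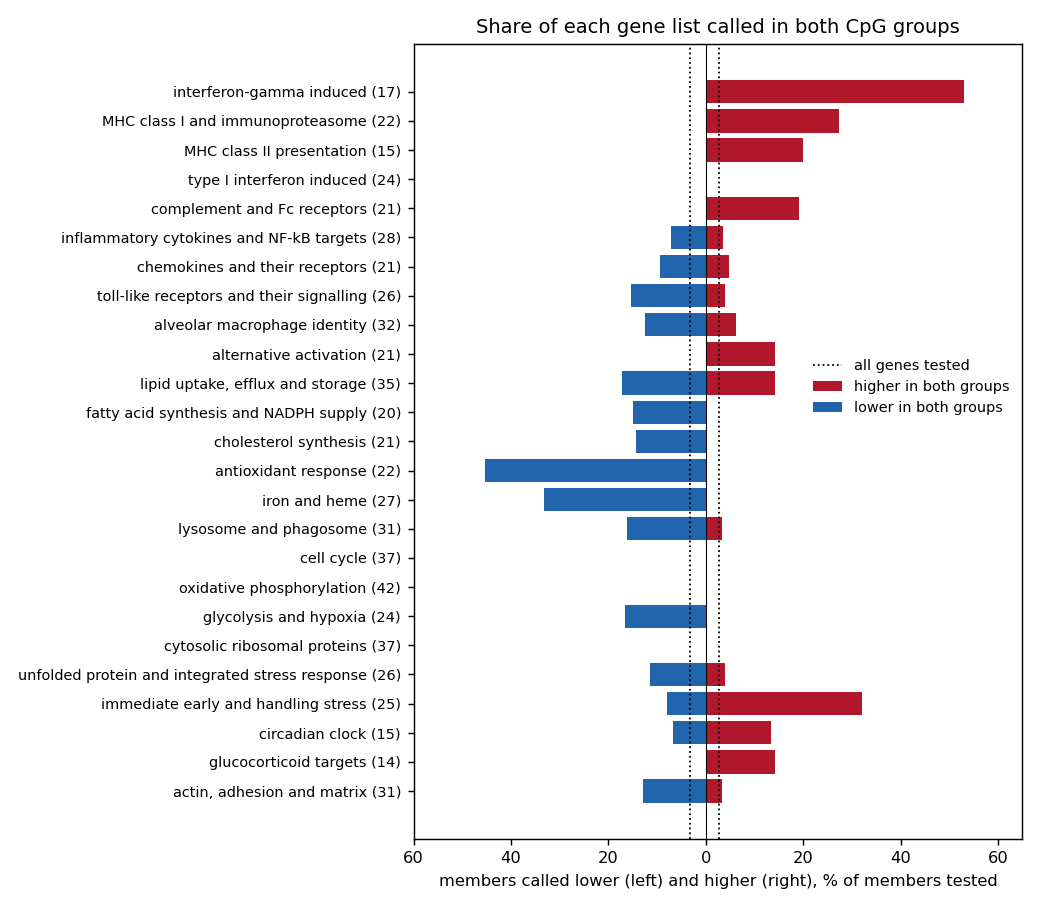
Share of the members tested of each of 25 gene lists (number tested in parentheses) that were called higher (right, red) or lower (left, blue), with dotted lines at the shares over all genes tested, 2.68% and 3.26%. The call asks for the same sign in both CpG groups, not for each group to pass alone. The interferon-gamma list stands out on the right with 9 of 17 and the antioxidant list on the left with 10 of 22, while cell cycle, oxidative phosphorylation, ribosomal protein and type I interferon genes have no bar.

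Of 37 cell cycle genes, 42 of oxidative phosphorylation and 37 of cytosolic ribosomal proteins 0 rose and 0 fell (limma). At an unadjusted p under 0.05, 2, 1 and 2 were higher and 3, 0 and 0 lower. Of the ribosomal genes 33 were positive in both groups, by a median of 0.10. Cholesterol synthesis had a median of -0.31, made of -0.08 in acute and -0.68 in resolution. It had 3 fallers of 21, Fdft1, Msmo1 and Hsd17b7, with 0 risers (0 unadjusted). None of the 3 passed in acute alone (adjusted p 0.654 to 0.764). Glycolysis and hypoxia had 4 fallers of 24, the glucose transporter Slc2a1, Pgam1, Ldha and Hif1a, with 0 risers (2 unadjusted). These 4 passed alone in resolution (adjusted p 7.54e-05 to 0.000965) but not in acute (0.609 to 0.869). Ldha, for instance, differed by -0.08 in acute and -0.61 in resolution. The shares of fallers were 14.3% for cholesterol synthesis and 16.7% for glycolysis, against 3.26% of all genes tested. Cell cycle gained 1 faller without resolution replicate 1, and glycolysis 1 riser without control replicate 2 or resolution replicate 2 or 4. The cholesterol count was 1 without control replicate 2, 3 or 4, acute replicate 2 or 3 or resolution replicate 4, and 0 without control replicates 3 and 4. It was 5 with a pseudocount of 16, the 60th percentile filter, an intensity trend or array weights.

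The list of immediate early genes and genes that rise with stress of handling had 8 risers and 2 fallers of 25, with a median of 0.28 made of 0.07 in acute and 0.48 in resolution. The risers were Fosb, Jund, Egr1, Egr3, Ier2, Nr4a1, Nr4a2 and Klf4, and the fallers Fosl1 (-1.26 ± 0.22, adjusted p = 0.00489) and Klf6 (-0.77 ± 0.14, 0.00707). Toll-like receptors and their signalling had 1 riser, Tlr3, and 4 fallers, Tlr13, Ticam1, Tollip and Tbk1, of 26. Tbk1 was called from the resolution group alone (-0.75), with -0.00074 in acute (adjusted p = 0.999). Tlr3 differed by 0.16 in acute (0.904) and 1.71 in resolution. Chemokines and their receptors had 1 riser, Cxcl14, and 2 fallers, the neutrophil receptors Cxcr1 and Cxcr2, of 21. Alternative activation had 3 risers of 21 (Klf4, Socs2, Stab1) and 0 fallers (1 unadjusted), and glucocorticoid targets 2 of 14 (Per1, Klf9) and 0 fallers (1 unadjusted). Clock genes had 2 risers (Per1, Per2) and 1 faller (Bhlhe41) of 15. The unfolded protein response had 1 riser (Sesn2) and 3 fallers (Hspa5, Sel1l, Ppp1r15a) of 26, and genes of actin, adhesion and matrix 1 riser (Zyx) and 4 fallers (Gsn, Sgcb, Mmp12, Mmp19) of 31. Zyx differed by 0.07 in acute (adjusted p = 0.909) and 1.51 in resolution, and Klf9 by 0.09 (0.898) and 1.38. Over all genes tested, 2.68% were called higher and 3.26% lower. Riser shares near that were 3.85% for toll-like receptors and the unfolded protein response, 4.76% for chemokines and 3.23% for actin and matrix. Other riser shares were 32% for immediate early genes, 14.3% for alternative activation and glucocorticoid targets and 13.3% for clock genes. Faller shares, in the order of naming, were 8%, 15.4%, 9.52%, 0%, 0%, 6.67%, 11.5% and 12.9%. These small counts moved with single arrays. Risers of the first list were 4 without control replicate 2 and 5 with no filter or without control replicate 3, control replicate 4 or acute replicate 2. Toll-like receptor fallers were 1 without control replicate 2 and 2 without control replicate 3 or acute replicate 2 or 3, and risers were 0 without control replicate 1 or 2, acute replicate 2 or resolution replicate 3 and 2 without control replicate 3. Chemokine risers were 0 without control replicate 3 or acute replicate 2 and 2 without control replicate 2 or resolution replicate 1, and alternative activation had 1 faller without control replicate 1. Unfolded protein fallers were 1 without any array other than control replicate 4 or resolution replicate 1 or 4, and its riser was kept only without control replicate 2 or resolution replicate 1 or 3. Actin and matrix fallers were 1 without acute replicate 2 and 2 without control replicate 1 or 3, and clock and glucocorticoid risers were each 1 without control replicate 2.

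Calls among markers of other cells rested on 1 to 3 genes a list, on shares above the 2.68% higher and 3.26% lower of all genes tested. Interstitial macrophage markers had 3 risers of 11 (27.3%), the C1q genes. Monocyte markers had 1 riser (Nr4a1) and 1 faller (Treml4) of 10 (10% each), neutrophil markers 1 faller (Cxcr2) of 8 (12.5%), dendritic cell markers 2 risers (Itgae, Batf3) of 8 (25%), and endothelial markers 1 faller (Vwf) of 4 (25%). Itgae was below background on all arrays, at 4.72 to 5.35. Batf3 differed by 0.13 in acute (adjusted p = 0.921) and 1.58 in resolution, and Cxcr2 by -0.08 (0.902) and -1.08. The part of these markers in the other results was not tested. T cell, natural killer, B cell, eosinophil, epithelial, fibroblast and red cell markers had 0 calls (limma), with 0 higher and at most 1 lower at an unadjusted p under 0.05. Of 17 epithelial markers 15 had opposite signs in the 2 CpG groups, with medians of 0.75 in acute and -0.48 in resolution. Scgb3a1, an airway secretory protein, was 6.25-fold higher in acute (adjusted p = 0.0269) and differed by -1.12 in resolution (0.0734).

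With unnamed gene models left out, genes that passed the equal-weight test without a shared direction were led by Ccl2, Tnfaip3, Pold1 and Gadd45a. In each the acute difference was close to 0 and the resolution arrays carried the change. Ccl2, a monocyte chemokine, was at 5.98 to 6.55 in control, 6.04 to 6.68 in acute and 8.81 to 9.90 in resolution, a 7.75-fold rise there (adjusted p = 3.52e-06). Tnfaip3, a brake on NF-kB, fell 5.32-fold in resolution (5.67e-05), with an acute difference of 0.06 (0.973). Pold1, a DNA polymerase subunit, rose 5.06-fold (6.21e-05) and Gadd45a, a stress gene, fell 4.34-fold (0.000197).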

How the data were processed

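The authors deposited intensities on a linear scale for 11 Affymetrix arrays, 1 per sample, made with Affymetrix Expression Console per the submitters' processing notes. Its version, its summary algorithm and the build behind the array's annotation were not given in the sources used here. Deposited were 28846 probe sets, of which 19572 had 1 symbol, 0 several and 9243 none, and 31 were Affymetrix controls. All 19572 gene identifiers were in RefSeq, and 0 symbols differed. For the 55 of 19505 symbols with more than 1 cluster, the brightest on average was used.

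Values were taken as log2(value + 1) without further scaling. Genes with at least 3 of 11 arrays above that array's 40th percentile were kept, which left 12143. Group means were fitted with limma 3.58.1 (R 4.3.3; 8 residual and 4.48 prior degrees of freedom), and tables were made with pandas 2.3.3 in Python 3.11.15. Tests were two-sided with Benjamini-Hochberg adjustment over all genes tested, and p under 0.05 was called. Each difference has its moderated SE. The procedure was tested on simulated data. The series design speaks of 11 mice for the 11 samples.

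Background of an array was the 90th percentile of its 23 antigenomic probe sets. A fold is "at least" where no array of the lower group was above background, and is then taken from the higher mean to the background or the lower mean, whichever is higher. No fold is given where that is under 1 or neither group was above background. Precision is limited by the number of arrays.

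The genes named were the 15 higher and the 15 lower with the largest smaller-of-2 group difference among those called without overlap between CpG and control arrays, up to 4 called members of each list described, 19 genes fixed in advance and 4 genes of opposite sign. Symbols of unnamed gene models, such as Gm with digits, Rik or LOC, were left out before the 15, the 15 and the 4 were taken. Other list members were named after their values had been seen. The members, the 37 lists (893 genes, 673 tested) and these rules were chosen with earlier results of these data known. The 25 alternatives changed the pseudocount, filter, scaling, weights, choice of cluster, sharing rule, block, covariate or arrays.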

Additional observations from a re-analysis of the deposited data

Results flagged for a closer look

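Of 154 sets of 4 arrays (77 genes named, control and resolution groups), 7 had an array whose gap to its nearest neighbour was above Dixon's critical value as a share of the whole range, and chance alone gives about 1 in 20. In resolution replicate 4, Gvin1 was high (12.33, share 0.923) and Akr1b8 (9.21, share 0.881) and Fabp5 (14.73, share 0.848) were low. In control replicate 4, Igf1 was high (14.59, share 0.851) and Siglecf low (14.51, share 0.886). Tmem82 was high in control replicate 2 (7.70, share 0.881) and in resolution replicate 1 (6.66, share 0.886).

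For 39 of the genes named, the differences from control in the 2 CpG groups were unequal by the test of resolution minus acute (limma, adjusted p under 0.05). Values below are resolution minus acute on the log2 scale. Among genes called higher, the resolution arrays were further from control for Gbp7 (0.61), Fcgr1 (0.92), Nr4a2 (1.81), Tmem229b (0.76), Cd80 (1.20), Cidec (1.21) and Angptl4 (1.41), and the acute arrays for Psmb9 (-0.66), Psmb8 (-0.75), Tap1 (-0.81), C1qc (-0.66) and Cxcl9 (-2.27).

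Of the genes called lower, these were further from control in resolution: Me1 (-0.78), Lrp8 (-1.60), Tubb2a (-1.05), Slc40a1 (-1.73), Akr1b8 (-1.37), Plpp3 (-5.48), Nfkbie (-2.01), Nfkb2 (-1.77), Bhlhe41 (-1.16), Ctsk (-0.89), Fabp5 (-0.63), Lipa (-0.42), Pgd (-0.90), Hmox1 (-3.21), Srxn1 (-2.82), Gclc (-1.91), Slc11a1 (-1.30), Gla (-1.05) and Atp6v1a (-1.11). Gsn and Sgcb, fallers of the actin, adhesion and matrix list, went the other way. Gsn differed by -0.72 in acute and -0.26 in resolution (adjusted p of the difference 0.0239), and Sgcb by -0.81 and -0.23 (0.0177). Me1 lay below background on all CpG arrays, and C1qc on all but 1 acute array. Signal therefore limits the resolution minus acute values of Me1 and C1qc.

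Genes named without a shared call also differed between the CpG groups. The values were -3.77 for Scgb3a1, -0.83 for Il6, -1.15 for Cd274, 0.84 for Pparg, 2.99 for Ccl2, -2.47 for Tnfaip3, 2.37 for Pold1 and -2.15 for Gadd45a.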

How the results depend on the processing

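With the 7 CpG arrays as 1 group, 4 genes were called higher and 9 lower, of which 2 differed between resolution and acute. When the larger of the 2 group p-values was adjusted, 0 were called in either direction (limma), with 192 higher and 263 lower at both unadjusted p under 0.05 and a smallest adjusted p of 0.104. Without control replicates 3 and 4 the counts were 131 higher, 220 lower and 254 unequal. With the epithelial mean as a covariate they were 284, 234 and 0. The covariate follows the CpG groups closely, and it ended 18 of the 60 calls of genes named, through a sign that turned in 1 group for Cxcl9, C1qc, Lrp8, Slc40a1, Gclc, Lipa, Bhlhe41, Nfkb2 and Nfkbie. Leaving out single arrays gave 210 to 352 higher, 243 to 377 lower and 310 to 438 unequal, and 43 of the 60 genes named kept their call in each of these. The pseudocount, filter, scaling, trend, array weights and choice of cluster kept these 3 counts over all genes within 1.5 times, but not all counts of the small lists. Beside those given with each list, the intensity trend gave 2 inflammatory, 2 chemokine, 2 toll-like receptor and 2 unfolded protein risers, 1 antioxidant and 1 ribosomal riser, 4 immediate early fallers, 1 cell cycle and 1 complement faller. Array weights gave 4 chemokine fallers, 3 toll-like receptor risers, 1 glycolysis riser, 0 unfolded protein risers, and 1 faller each for MHC class II, complement and glucocorticoid targets. Quantile normalization gave 1 inflammatory faller, 2 chemokine risers, 1 chemokine faller and 0 unfolded protein risers, the last also with median scaling, no filter or the 60th percentile filter. That filter gave 2 chemokine, 2 toll-like receptor and 1 glycolysis riser and 1 complement faller, and a pseudocount of 16 gave 1 glycolysis riser and 1 complement faller. The epithelial covariate gave 0 inflammatory, 0 unfolded protein and 0 clock fallers, 2 toll-like receptor risers and 2 fallers, 4 alveolar macrophage identity risers, 1 cell cycle riser, 0 lysosome risers and 2 fallers, 0 unfolded protein risers, 5 immediate early risers and 1 faller, and 1 clock riser.

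The replicate numbers did not pair the samples, since same-numbered arrays deviated together with correlations of -0.124 to 0.0872 over 10 pairs and 1 of 11 arrays correlated best with its own number. With the replicate block 272 genes were higher, 326 lower and 380 unequal, and among the lists 1 type I interferon and 5 immediate early risers and 1 toll-like receptor and 1 actin and matrix faller.

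None of the 60 calls changed direction in the equal-weight difference. Genes not called did so near 0. Il10 differed by -0.077 with the epithelial covariate, and by -0.045 to 0.12 with single arrays left out (below 0 without control replicate 1 or 2, acute replicate 2 or resolution replicate 2). Siglecf differed by -0.015 without control replicates 3 and 4 and by -0.022 to 0.17 with single arrays left out (below 0 without control replicate 4), and Arg1 by 0.0075 without control replicates 3 and 4. Unless stated, the cause was not tested. Signal limits genes near background, such as Igtp, C1qb, C1qc, Ciita, Nqo1, Nfe2 and Vmn1r31.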
